A study of Rattus norvegicus with 12 samples.

Results

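The vascular endothelium lines every vessel of the lung, and its cells are held together by adherens and tight junctions. Some proteins of these junctions are made by few other cells. A small set of transcription factors of the ETS, SOXF and basic helix-loop-helix families keeps the endothelial programme switched on, in part by driving the junction genes themselves. The genes described here are 9 such endothelial genes, found by their symbols among the 32883 genes of a count table from whole rat lung. They are the junction genes Cdh5, Cldn5 and Esam, the endothelial genes Clec14a and Ushbp1, and the transcription factor genes Erg, Tal1, Sox7 and Sox18. A list of 10 symbols was used, of which Pecam1 was not analysed here. All 9 passed the filter on low counts and were tested. They were picked with earlier results from the same libraries in view, in which Clec14a and Ushbp1 were lower after monocrotaline. Their values in MCT-Vehicle against Control are therefore given as a description, without p-values. Where the text says that a member passed or missed the threshold there, this too is description and not a test.

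The libraries came from whole lung of wild-type rats, in 3 groups of 4. MCT-Fer-1 rats received monocrotaline and, for 10 days, ferrostatin-1, a radical-trapping molecule that blocks ferroptosis. Monocrotaline is a toxin from Crotalaria plants whose liver metabolites damage pulmonary vessels, and it is used to model pulmonary hypertension. MCT-Vehicle rats received monocrotaline and the vehicle of ferrostatin-1 for 10 days. Control rats carry no agent in the labels. All samples are labelled with a time of 25 days, and strain, sex and age are not given in the labels. Monocrotaline and vehicle dosing cannot be told apart against Control. The sample descriptions give each library a lung number of its own, but no label says in words that each is a separate animal, and p-values measure the spread between these libraries.

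Total counts per library spanned 11601929 to 70627239 for MCT-Fer-1, 13654695 to 24016262 for MCT-Vehicle and 16640022 to 18229992 for Control. Of all counts in a library, 0.134% to 0.303% fell on the 9 genes, and the lowest count of any of them in any library was 352, for Tal1 in MCT-Vehicle 3. Levels are in CPM, the counts of a gene per 1000000 counts of the library. MCT-Vehicle 2 and Control 4 carried the highest sums of 10 heart-muscle markers (431 and 279 CPM), while each remaining library had 18.1 to 82.3 CPM, so counts of called genes are also given without that pair. Because whole lung was sequenced, fewer endothelial cells and less of a transcript per cell cannot be told apart in any value below.

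Promoter sequences were available for 5 of the 9 genes (Clec14a, Ushbp1, Erg, Tal1 and Cldn5). Those of Clec14a and Ushbp1, the genes furthest below Control in MCT-Vehicle, and of Erg, which was nearest to Control in MCT-Fer-1, are shown so that a reader can see what they hold. The sequences are RefSeq's on build GRCr8, from 250 bases before to 50 bases after the annotated start, printed 5′ to 3′ on the strand of the gene. Capitals mark matches, on either strand, to the ETS motifs CCGGAA and AGGAAG, the E-box motifs CAGATG and CAGCTG that TAL1 complexes can bind, the GATA motif AGATAA, the SOX motifs ACAAAG and ACAATG, and the CACCC motif CCACCC. No matches in these windows overlapped.
Clec14a, chr6:81619507-81619806, minus strand: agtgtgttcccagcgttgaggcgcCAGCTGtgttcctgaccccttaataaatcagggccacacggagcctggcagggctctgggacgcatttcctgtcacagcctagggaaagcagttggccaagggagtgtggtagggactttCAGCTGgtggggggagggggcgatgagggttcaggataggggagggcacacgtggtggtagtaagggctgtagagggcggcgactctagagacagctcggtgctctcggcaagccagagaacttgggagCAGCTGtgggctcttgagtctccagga
Ushbp1, chr16:18101818-18102117, minus strand: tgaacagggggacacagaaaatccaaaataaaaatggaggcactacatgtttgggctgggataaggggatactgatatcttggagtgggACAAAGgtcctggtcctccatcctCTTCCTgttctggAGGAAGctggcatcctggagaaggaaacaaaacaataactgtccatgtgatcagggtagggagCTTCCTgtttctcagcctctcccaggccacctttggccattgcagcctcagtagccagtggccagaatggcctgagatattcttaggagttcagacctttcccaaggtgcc
Erg, chr11:48251517-48251816, minus strand: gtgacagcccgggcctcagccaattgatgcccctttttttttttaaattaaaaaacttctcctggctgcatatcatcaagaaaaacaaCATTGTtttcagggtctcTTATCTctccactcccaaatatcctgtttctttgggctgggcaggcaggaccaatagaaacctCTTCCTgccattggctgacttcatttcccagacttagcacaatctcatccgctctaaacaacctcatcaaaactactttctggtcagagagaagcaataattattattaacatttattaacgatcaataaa

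The Clec14a window held CAGCTG 3 times, at -226, -106 and 24 from the annotated start. Of 33469 rat promoters of this length, 15.1% held CAGCTG and 0.125% held it at least 3 times. The Ushbp1 window held AGGAAG or its reverse complement 3 times, which 1.77% of promoters matched or exceeded, and ACAAAG once. The Erg window, at a start inside the annotated gene, held 1 match to AGGAAG, 1 to the GATA motif and 1 to a SOX motif. In the 5 windows together, an ETS motif occurred in 2 (44.3% of all promoters), an E-box motif in 2 (29.1%), a SOX motif in 2 (29.1%), AGATAA in 1 (11.6%) and CCACCC in 0 (29.4%). The repeats of CAGCTG and AGGAAG were counted after the matches were seen. A match is a string of letters and not a measured binding site.

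In MCT-Vehicle lungs each of the 9 genes averaged less than in Control lungs, but to unequal degrees, and 47.6% of all genes tested had a log2 fold change below 0. Mean CPM, scaled by TMM library sizes, stood at 28.2% of the Control mean for Clec14a, 49.0% for Ushbp1, 54.7% for Sox7, 60.9% for Cldn5, 63.8% for Tal1, 68.9% for Cdh5, 75.3% for Sox18, 77.0% for Erg and 79.1% for Esam. Only Clec14a stood clear of its neighbour in this order by more than the summed standard errors of the log2 fold changes, and the other neighbours differed by less. The median log2 fold change of the 9 was -0.65, against 0.02 over all 15257 genes tested. The edgeR threshold (Benjamini-Hochberg adjusted p below 0.05 over all genes) was passed downwards by 7 of the 9, where 8.28% of all genes tested passed it downwards and 18.6% in either direction. It was passed by 6 of them without MCT-Vehicle 2 and Control 4. The values of MCT-Vehicle and Control did not overlap for 7 of the 9, and 10.0% of all genes lay wholly below Control in this way. Since the genes were chosen with this contrast known, nothing is read from these counts or from the call of any single member in it.

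**Figure D1:**
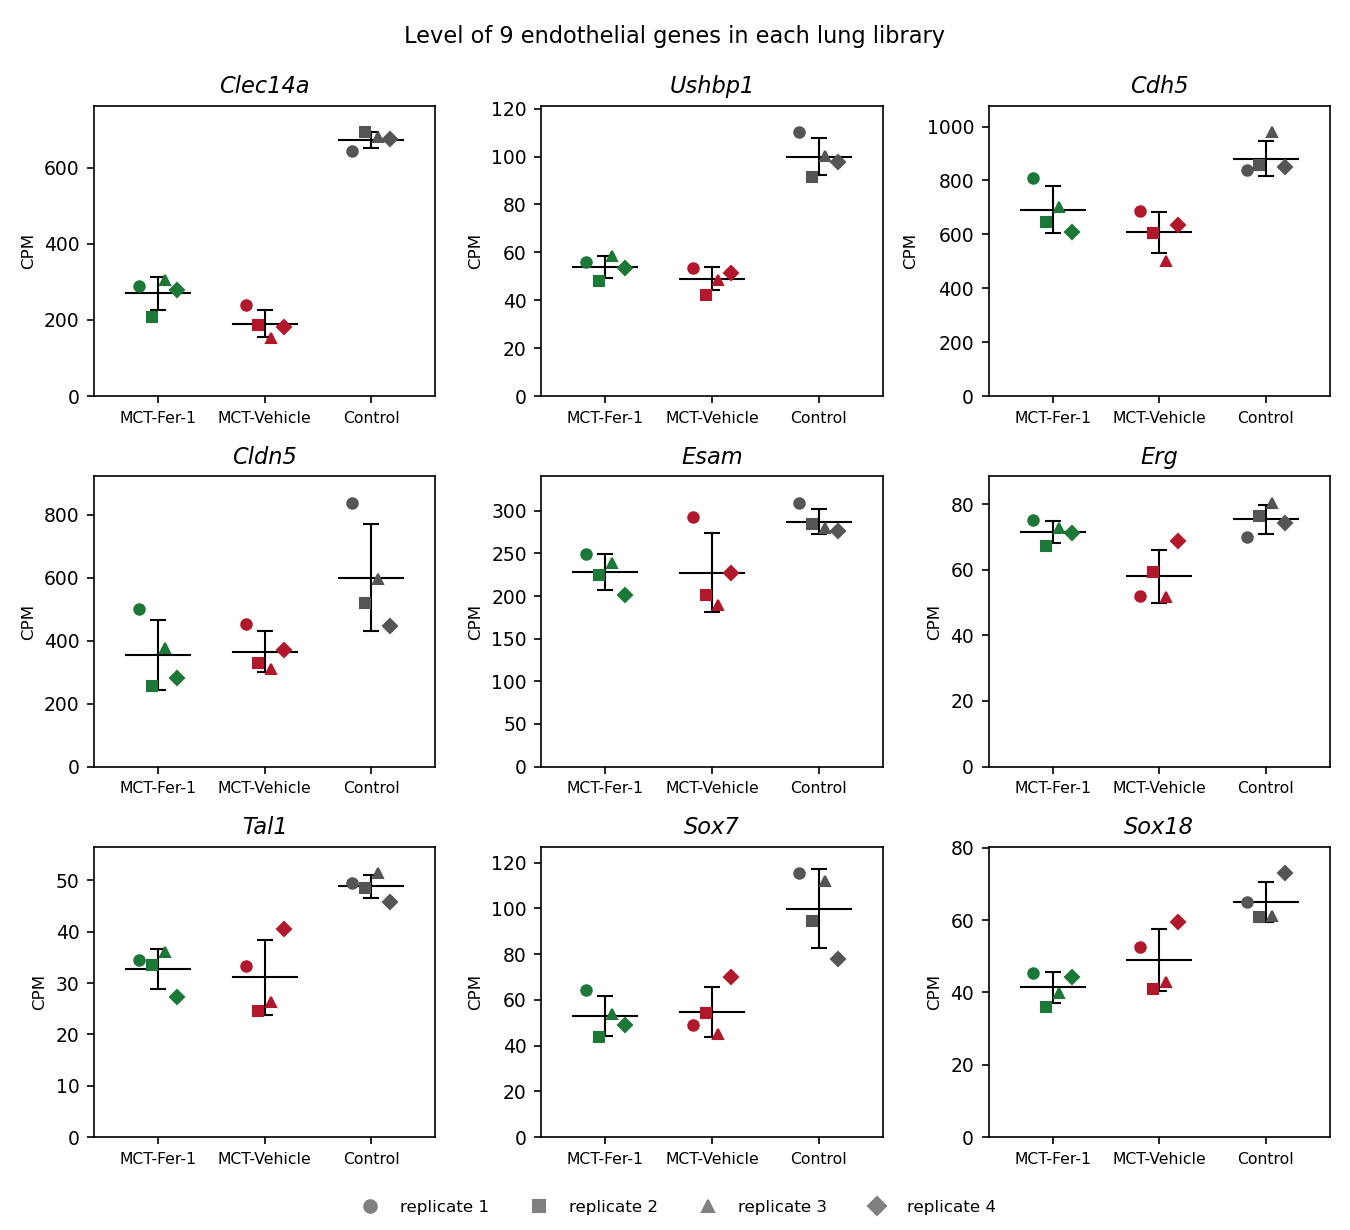
CPM of the 9 genes (vertical axes, from 0) in each library of MCT-Fer-1, MCT-Vehicle and Control; points are libraries with a shape per replicate number, which does not pair libraries, and lines with bars are means ± SD (n = 4). Clec14a and Ushbp1 lie well below Control in both monocrotaline groups, while Erg in MCT-Fer-1 (67.2 to 75.2 CPM) overlaps Control (70.1 to 80.5 CPM).

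Clec14a (ENSRNOG00000022697) encodes a C-type lectin-like glycoprotein of the endothelial surface with roles in vessel sprouting. It stood at 290, 208, 304 and 277 CPM in MCT-Fer-1 1 to 4, at 239, 185, 152 and 182 CPM in MCT-Vehicle 1 to 4, and at 644, 693, 680 and 675 CPM in Control 1 to 4. Every monocrotaline library was below every Control library, and 3 of the 4 MCT-Fer-1 libraries were above every MCT-Vehicle library. The means were 270 ± 42.7 CPM in MCT-Fer-1, 190 ± 36.1 CPM in MCT-Vehicle and 673 ± 20.5 CPM in Control (SD, n = 4 each). The log2 fold change was -1.83 ± 0.14 (SE) in MCT-Vehicle against Control.

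Ushbp1 (ENSRNOG00000023485) encodes a protein that binds harmonin. It stood at 55.9, 47.9, 58.4 and 53.3 CPM in MCT-Fer-1, at 53.4, 42.3, 48.6 and 51.5 CPM in MCT-Vehicle and at 110, 91.6, 100 and 97.8 CPM in Control. The monocrotaline groups overlapped each other, and neither overlapped Control. Its log2 fold change in MCT-Vehicle against Control was -1.03 ± 0.09.

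Among the junction genes, Cdh5 (ENSRNOG00000013324) encodes VE-cadherin, the adhesive protein of endothelial adherens junctions. It stood at 810, 646, 701 and 609 CPM in MCT-Fer-1, at 685, 606, 502 and 634 CPM in MCT-Vehicle and at 837, 858, 979 and 850 CPM in Control. Each MCT-Vehicle library was below the lowest Control library, and so was each MCT-Fer-1 library, the nearest being MCT-Fer-1 1. The log2 fold change in MCT-Vehicle against Control was -0.54 ± 0.11.

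Cldn5 (ENSRNOG00000045811) encodes claudin-5, which seals endothelial tight junctions. It stood at 501, 257, 375 and 282 CPM in MCT-Fer-1, at 454, 328, 309 and 369 CPM in MCT-Vehicle and at 838, 520, 595 and 447 CPM in Control. Its coefficient of variation was 31.2% in MCT-Fer-1 and 28.3% in Control, the highest of the 9 genes in these groups, and 17.6% in MCT-Vehicle. Both monocrotaline groups overlapped Control. The log2 fold change in MCT-Vehicle against Control was -0.72 ± 0.23, which did not pass the threshold.

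Esam (ENSRNOG00000033217) encodes an immunoglobulin-family adhesion molecule of endothelial tight junctions that is also made by platelets. It stood at 250, 224, 239 and 201 CPM in MCT-Fer-1, at 292, 201, 190 and 227 CPM in MCT-Vehicle and at 309, 284, 280 and 276 CPM in Control. MCT-Vehicle 1 lay among the Control libraries, and the other 3 MCT-Vehicle libraries lay below them. The log2 fold change in MCT-Vehicle against Control was -0.34 ± 0.12, which did not pass the threshold. Markers of platelets and megakaryocytes, summed over 12 genes of which 2 had no count in any library, ranged over 70.5 to 95.6 CPM in MCT-Fer-1, 62.3 to 76.8 CPM in MCT-Vehicle and 55.5 to 77.8 CPM in Control, and their part in the Esam values was not tested.

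Of the transcription factor genes, Erg (ENSRNOG00000001652) encodes the ETS factor that maintains the endothelial programme and drives Cdh5 and Cldn5 in cultured human endothelial cells. It stood at 75.2, 67.2, 72.8 and 71.3 CPM in MCT-Fer-1, at 52.2, 59.5, 51.7 and 68.9 CPM in MCT-Vehicle and at 70.1, 76.5, 80.5 and 74.3 CPM in Control. Each MCT-Vehicle library was below the lowest Control library, whereas MCT-Fer-1 overlapped Control. The log2 fold change in MCT-Vehicle against Control was -0.38 ± 0.09.

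Tal1 (ENSRNOG00000025051) encodes a basic helix-loop-helix factor that acts in endothelial and red-cell precursors of the mouse. It stood at 34.6, 33.5, 36.0 and 27.2 CPM in MCT-Fer-1, at 33.3, 24.6, 26.2 and 40.5 CPM in MCT-Vehicle and at 49.6, 48.5, 51.4 and 45.9 CPM in Control. No library of either monocrotaline group reached the Control range, and the log2 fold change in MCT-Vehicle against Control was -0.65 ± 0.14. Red-cell transcripts also averaged less in both monocrotaline groups than in Control, though MCT-Fer-1 overlapped Control. The 10 erythroid genes summed to 1659 to 3393 CPM in MCT-Fer-1, 1719 to 2253 CPM in MCT-Vehicle and 3332 to 5484 CPM in Control. Of the 9 erythroid genes tested, 7 fell and 0 rose in MCT-Vehicle against Control, and their part in the Tal1 values was not tested. The 9 tested genes for partners of TAL1 had log2 fold changes from -1.11 to 0.26 in that comparison. Their list was also chosen with earlier results of these data known. Where 8.28% of all genes tested fell and 10.3% rose, 0 of these 9 rose and 2 fell. These were Gata2, a GATA factor gene (log2 fold change -1.11 ± 0.21, edgeR adjusted p = 0.00381), and the corepressor gene Cbfa2t3 (-0.64 ± 0.14, edgeR adjusted p = 0.00719). Ldb1, which encodes a bridging factor of the complex, stood at -0.24 ± 0.08 on the same scale (edgeR adjusted p = 0.0543).

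Sox7 (ENSRNOG00000012049) and Sox18 (ENSRNOG00000016248) encode SOXF factors that act in vessel formation, and Sox18 also in the formation of lymphatic vessels in the mouse. Sox7 stood at 64.5, 43.9, 53.7 and 49.1 CPM in MCT-Fer-1, at 49.1, 54.4, 45.2 and 70.1 CPM in MCT-Vehicle and at 115, 94.4, 112 and 78.0 CPM in Control. Sox18 stood at 45.4, 36.0, 39.9 and 44.3 CPM in MCT-Fer-1, at 52.4, 40.9, 42.9 and 59.4 CPM in MCT-Vehicle and at 64.9, 60.9, 61.2 and 72.9 CPM in Control. Neither gene reached its Control range in any monocrotaline library. Their log2 fold changes in MCT-Vehicle against Control were -0.87 ± 0.16 for Sox7 and -0.41 ± 0.12 for Sox18. That of Sox18 no longer passed the threshold without MCT-Vehicle 2 (-0.33), without MCT-Vehicle 3 (-0.35), without Control 1 (-0.41) or without Control 4 (-0.35), each left out alone. Sox17, the third SOXF gene, had -0.78 ± 0.27 (edgeR adjusted p = 0.0674).

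The comparison of MCT-Fer-1 with MCT-Vehicle asked what ferrostatin-1 altered. It shares its MCT-Vehicle libraries with the contrast that was known when the genes were chosen. The members' p-values here, and those of the ratios below, are therefore not independent of that choice. No member passed the edgeR threshold, and 0.00% of all genes tested did. An unadjusted p under 0.05 was reached by 1835 of the 15257 genes. The DESeq2 Wald test called 244 genes, or 1.78% of those it could test, with Clec14a the only member among them (DESeq2 adjusted p = 0.0248). Log2 fold changes were above 0 for 6 of the 9, as for 47.8% of all genes tested, and below 0 for 3, and the median log2 fold change was 0.07, against -0.01 over all genes. No member had groups without overlap, which 6.10% of all genes had.

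The members with the highest values in this comparison were Clec14a (log2 fold change 0.51 ± 0.13, edgeR adjusted p = 0.206) and Erg (0.30 ± 0.09, edgeR adjusted p = 0.238). For each, 3 of the 4 MCT-Fer-1 libraries lay above every MCT-Vehicle library. Cdh5 had 0.19 ± 0.11 (edgeR adjusted p = 0.512) and Ushbp1 0.14 ± 0.09 (edgeR adjusted p = 0.555). The values of Tal1 (0.07 ± 0.14), Esam (0.00 ± 0.12), Cldn5 (-0.05 ± 0.23) and Sox7 (-0.05 ± 0.16) were smaller than their standard errors, with edgeR adjusted p from 0.875 for Tal1 to 0.993 for Esam. Sox18 stood at 41.4 ± 4.32 CPM in MCT-Fer-1 and 48.9 ± 8.62 CPM in MCT-Vehicle (SD, n = 4 each), which is -0.24 ± 0.12 on the log2 scale (edgeR adjusted p = 0.444). Genes that miss the threshold with 4 libraries a group are not shown to be equal.

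**Figure D2:**
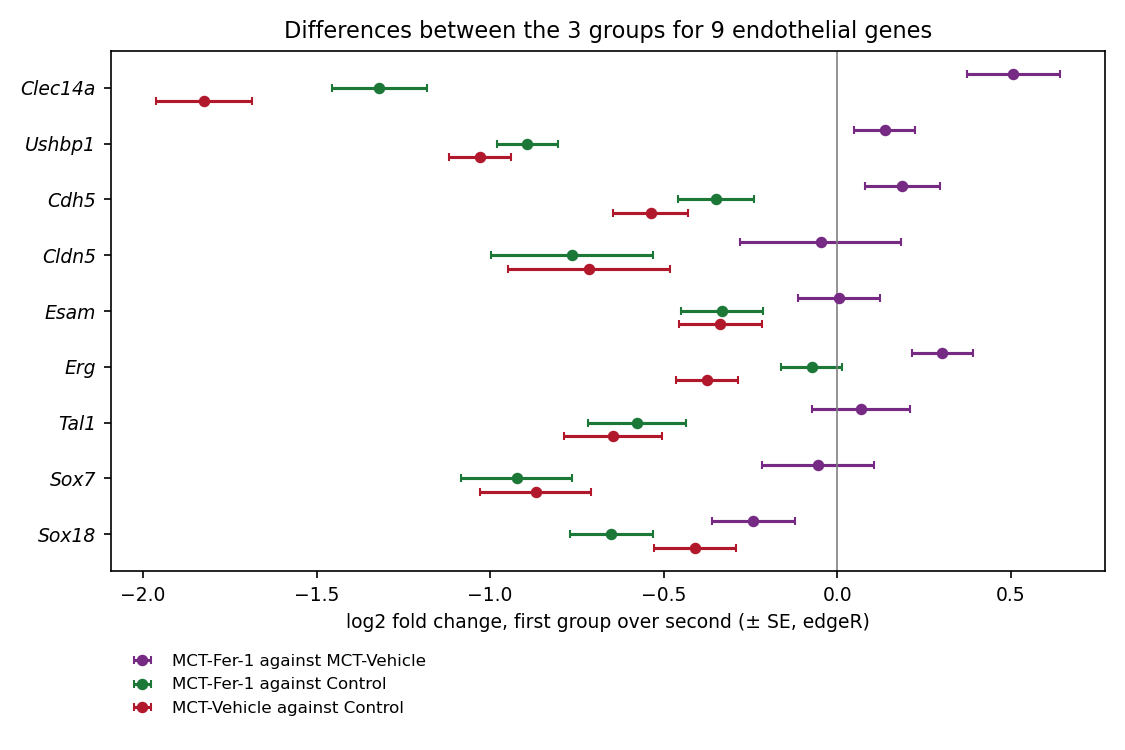
Log2 fold changes (horizontal axis, first-named group over second) with standard errors from edgeR for the 9 genes in the 3 comparisons. In MCT-Fer-1 against MCT-Vehicle, Clec14a (0.51 ± 0.13) and Erg (0.30 ± 0.09) lie furthest right and Sox18 (-0.24 ± 0.12) furthest left. Comparisons that share a group are not independent.

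In MCT-Fer-1 against Control, which shares its Control libraries with the description above, 5 of the 9 genes fell and 0 rose, where 4.12% of all genes tested fell and 6.67% rose. Because of the shared libraries, these p-values are not independent of how the genes were chosen. Without MCT-Vehicle 2 and Control 4 the number was also 5. All 9 log2 fold changes were below 0, as were 50.6% over all genes, and MCT-Fer-1 lay wholly below Control for 7 of the 9, as for 8.54% of all genes. On the log2 scale Clec14a fell by 1.32 (SE 0.14, edgeR adjusted p = 1.28e-04) and Ushbp1 by 0.89 (SE 0.09, edgeR adjusted p = 9.28e-05). Sox7 fell by 0.92 (SE 0.16, edgeR adjusted p = 0.00341) and Sox18 by 0.65 (SE 0.12, edgeR adjusted p = 0.00435). Tal1 had -0.58 ± 0.14 (edgeR adjusted p = 0.0210), a call that ended when MCT-Fer-1 2, MCT-Fer-1 4 or Control 3 was left out alone (adjusted p of 0.0518, 0.0556 and 0.0569 in that order). No junction gene among the 9 passed: Cldn5 had -0.76 ± 0.23, Cdh5 -0.35 ± 0.11 and Esam -0.33 ± 0.12, with edgeR adjusted p of 0.0578, 0.0598 and 0.0992. DESeq2 called Cdh5 (adjusted p = 0.0166) and Cldn5 (adjusted p = 0.00748) besides the other 5, where it called 15.2% of all genes it could test. Erg had -0.07 ± 0.09 (edgeR adjusted p = 0.667), with MCT-Fer-1 at 95.1% of the Control mean. Mean levels in MCT-Fer-1 as a share of the Control mean were 40.1% for Clec14a, 52.9% for Sox7, 53.9% for Ushbp1, 59.0% for Cldn5, 63.7% for Sox18, 67.2% for Tal1, 78.5% for Cdh5 and 79.5% for Esam.

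The ratio of 2 transcripts within a library does not depend on how libraries are scaled, and Cdh5 was used as the common denominator. Per library, without correction for transcript length, Clec14a had 0.392 ± 0.0629 times the CPM of Cdh5 in MCT-Fer-1, 0.312 ± 0.0262 times in MCT-Vehicle and 0.767 ± 0.0502 times in Control (SD, n = 4 each). Ushbp1 had 0.0784 ± 0.00845 times in MCT-Fer-1, 0.0814 ± 0.0113 times in MCT-Vehicle and 0.114 ± 0.0130 times in Control. Both ratios lay below Control in every library of either monocrotaline group, which is a description, since these genes were known to be low in MCT-Vehicle when the set was chosen. The Erg ratio was 0.0929 to 0.117 in MCT-Fer-1, 0.0761 to 0.109 in MCT-Vehicle and 0.0822 to 0.0892 in Control, so that MCT-Fer-1 lay above Control and MCT-Vehicle overlapped it. The Tal1 ratio was 0.0427 to 0.0518 in MCT-Fer-1, 0.0405 to 0.0639 in MCT-Vehicle and 0.0525 to 0.0592 in Control, and the Sox7 ratio was 0.0680 to 0.0807 in MCT-Fer-1, 0.0717 to 0.111 in MCT-Vehicle and 0.0917 to 0.138 in Control. For both, MCT-Fer-1 lay below Control and MCT-Vehicle overlapped it. The ratios of Esam, Cldn5 and Sox18 overlapped Control in both monocrotaline groups.

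Between MCT-Fer-1 and MCT-Vehicle, the 8 ratios were tested with an exact two-sided permutation test, whose smallest possible p is 0.0286, with Benjamini-Hochberg adjustment over the 8. No adjusted p was below 0.05, but this design could hardly give one: at least 5 of the 8 ratios would have had to reach the smallest p together. Sox18 relative to Cdh5 was lower in MCT-Fer-1 by a log2 difference of -0.42 (exact permutation p = 0.0571, adjusted p = 0.228), and Clec14a relative to Cdh5 was higher by 0.32 (exact permutation p = 0.0571, adjusted p = 0.228). Clec14a was known to be low in MCT-Vehicle when the set was chosen, so its p is not independent of that choice. The other 6 ratios had exact permutation p from 0.0857 for Esam to 0.714 for Ushbp1.

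**Figure D3:**
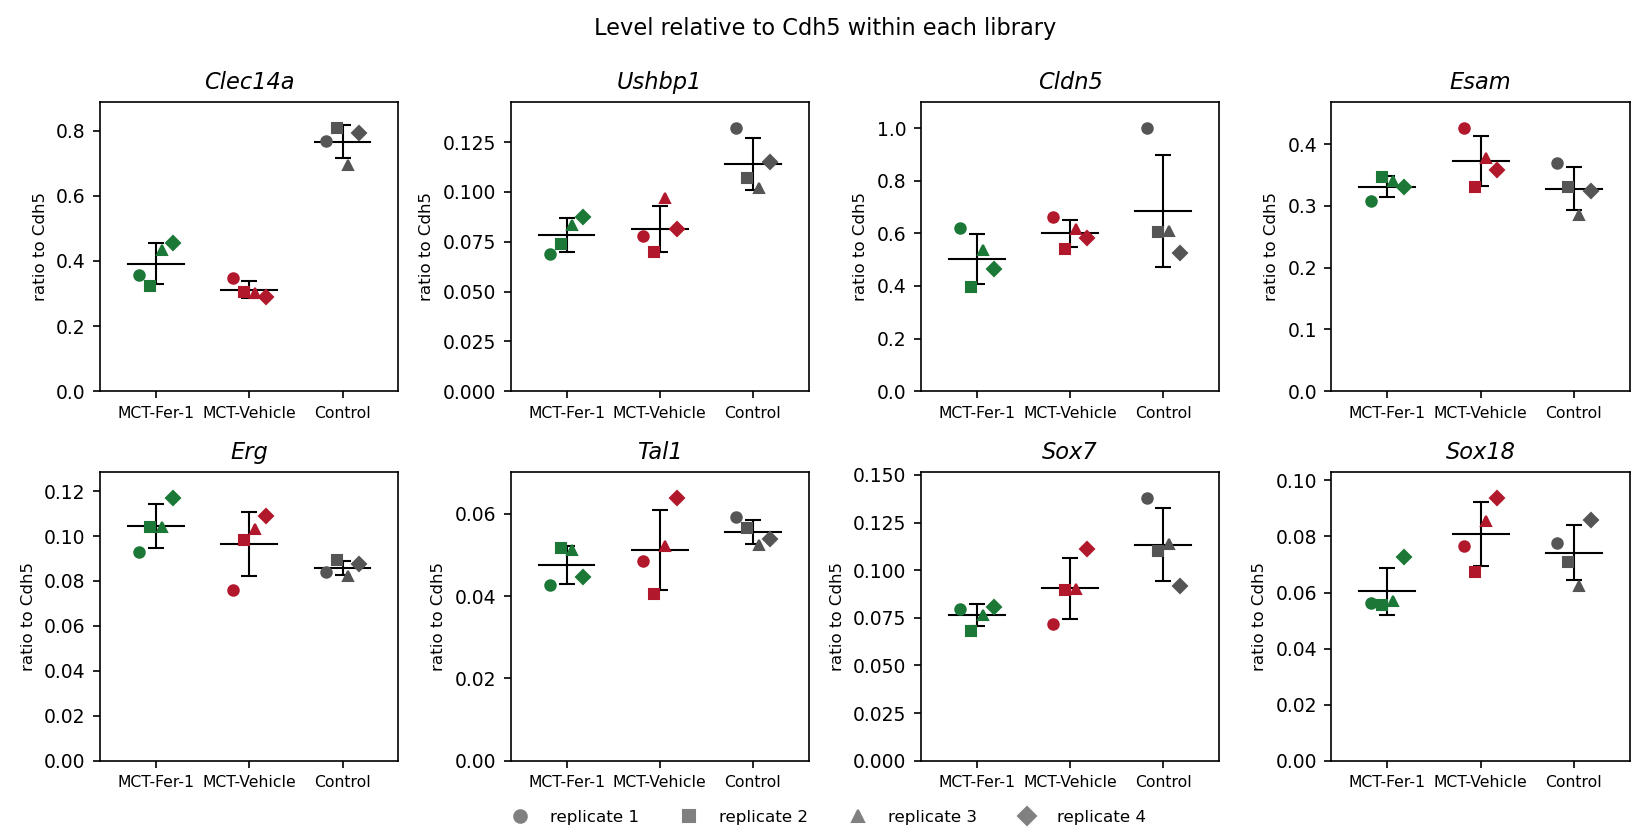
CPM of 8 genes divided by the CPM of Cdh5 in the same library (vertical axes, from 0), by group; points are libraries and lines with bars are means ± SD (n = 4). The Clec14a ratio is 0.392 in MCT-Fer-1, 0.312 in MCT-Vehicle and 0.767 in Control.

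Other endothelial genes gave a setting for the 9. Their lists, like the marker lists below, were also chosen with earlier results of these data known. Their counts and p-values are therefore a description and not an independent check on the 9. Of 81 tested genes in 3 lists, 30 fell and 8 rose in MCT-Vehicle against Control, where 8.28% of all genes tested fell and 10.3% rose, and their median log2 fold change was -0.23. Without MCT-Vehicle 2 and Control 4, 27 of them passed in either direction, against 38 with all libraries. In MCT-Fer-1 against Control, 22 fell and 6 rose, where 4.12% of all genes tested fell and 6.67% rose. In MCT-Fer-1 against MCT-Vehicle none passed in edgeR, and 56 of 81 had a value above 0, as did 47.8% of all genes tested. DESeq2 called Calcrl, the receptor gene for adrenomedullin (adjusted p = 0.00756), and the BMP receptor gene Bmpr2 (adjusted p = 0.0303) in that comparison.

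Among junction and adhesion genes, 10 of 25 fell and 3 rose in MCT-Vehicle against Control. The junctional adhesion molecule gene Jam2 fell to 139 ± 25.8 CPM in MCT-Vehicle, against 257 ± 6.88 CPM in Control (log2 fold change -0.88 ± 0.12, edgeR adjusted p = 3.38e-04). Ptprb, the phosphatase that associates with VE-cadherin, fell by 1.28 on the log2 scale (edgeR adjusted p = 4.18e-04), and Plvap, a component of endothelial diaphragms, fell by 0.94 (edgeR adjusted p = 8.10e-04). The related Jam3 rose by 0.60 ± 0.11 (edgeR adjusted p = 0.00287), as did the leukocyte adhesion gene Vcam1 by 0.87 ± 0.19 (edgeR adjusted p = 0.00734) and the connexin gene Gja1 by 0.47 ± 0.12 (edgeR adjusted p = 0.0159). Beta-catenin (Ctnnb1), which binds the tail of VE-cadherin but is made by most cells, had -0.01 ± 0.07 (edgeR adjusted p = 0.924).

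Among surface and signalling genes, 13 of 31 fell and 4 rose. The angiopoietin receptor gene Tek, the adhesion receptor gene Adgrf5 and Gpihbp1, which anchors lipoprotein lipase to capillaries, fell with edgeR adjusted p from 7.88e-06 for Tek to 1.35e-04 for Gpihbp1. Gpihbp1 stood at 4.66 ± 3.39 CPM in MCT-Vehicle and 71.9 ± 18.0 CPM in Control. The scavenger receptor gene Stab1 (log2 fold change 1.51 ± 0.18, edgeR adjusted p = 2.37e-04), Cd34, a sialomucin gene (0.55 ± 0.07, edgeR adjusted p = 3.19e-04), and the endomucin gene Emcn (0.80 ± 0.14, edgeR adjusted p = 0.00213) rose. The pan-endothelial receptor gene Tie1 stood at 269 ± 19.6 CPM in MCT-Vehicle and 272 ± 19.8 CPM in Control (edgeR adjusted p = 0.916). The genes of these endothelial lists thus did not all lie lower after monocrotaline. Which cells of whole lung made the transcripts that rose was not tested.

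Among transcription factor genes, 7 of 25 fell and 1 rose. Epas1, which encodes HIF-2alpha, fell by 0.86 on the log2 scale (SE 0.11, edgeR adjusted p = 2.44e-04) and the Notch target gene Hey1 by 1.60 (SE 0.25, edgeR adjusted p = 0.00112), beside Gata2 given above. The homeobox gene Meox1 rose by 1.72 ± 0.31 (edgeR adjusted p = 0.00249). Fli1, the closest ETS relative of Erg, had -0.13 ± 0.16 (edgeR adjusted p = 0.607).

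**Figure D4:**
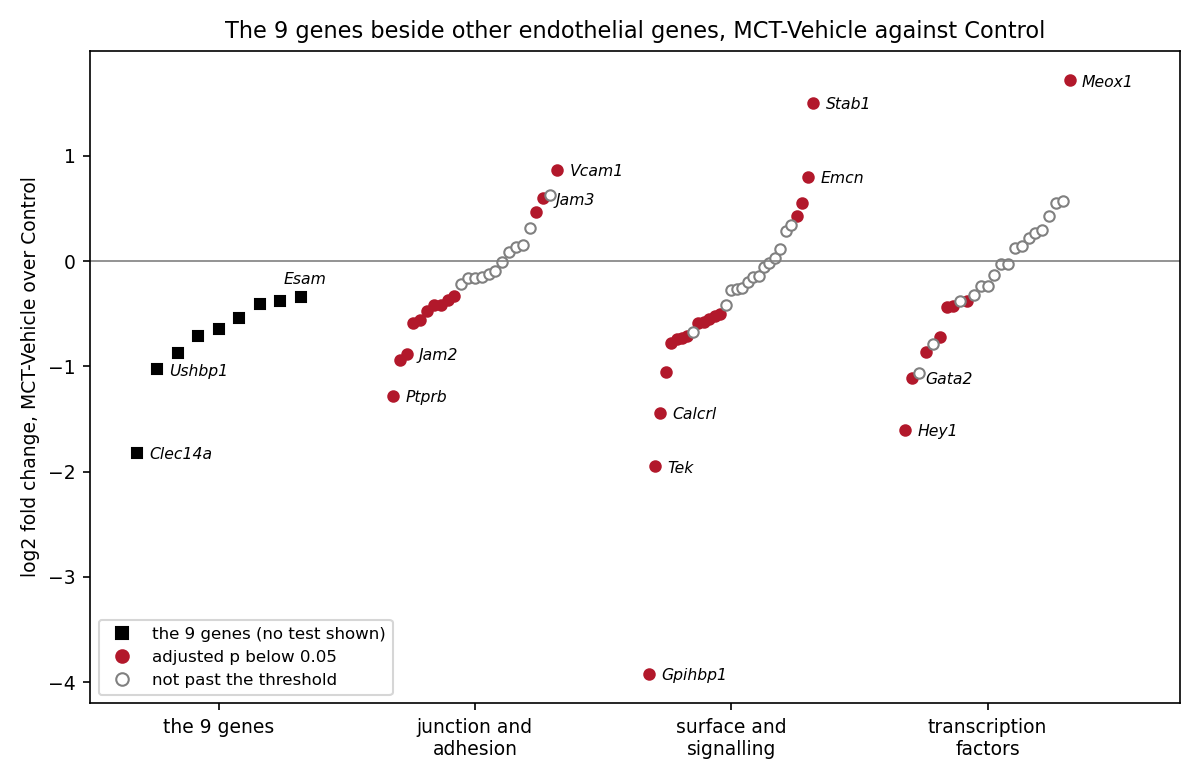
Log2 fold changes in MCT-Vehicle over Control (vertical axis) of the 9 genes (black squares) and of the tested genes of 3 other endothelial lists (circles, filled where the edgeR adjusted p is below 0.05). All 9 squares lie below 0, while the lists spread to both sides, with 30 genes that fell and 8 that rose.

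Markers of other cells were also looked at. In MCT-Vehicle against Control, 8.28% of all genes tested fell and 10.3% rose. Of 7 lymphatic endothelial markers, 4 rose and 1, Lyve1, fell in that comparison (log2 fold change -1.09 ± 0.12, edgeR adjusted p = 8.83e-05). Mast cell markers summed to 416 to 749 CPM in MCT-Fer-1, 348 to 1039 CPM in MCT-Vehicle and 202 to 285 CPM in Control. Of the 8, 7 rose and 1, Kit, fell in MCT-Vehicle against Control. Kit made up 204 of 253 CPM on average in Control and 111 of 665 CPM in MCT-Vehicle. Leukocyte markers ranged over 23360 to 30650 CPM in MCT-Fer-1, 22920 to 36800 CPM in MCT-Vehicle and 23030 to 25410 CPM in Control. The highest sum was in MCT-Vehicle 3, the library with the lowest sum of the 9 genes (1368 CPM). Most of this sum was 1 gene, Lyz2, which made up 25630 of 27880 CPM on average in MCT-Vehicle and 22120 of 24150 CPM in Control. Of 16 leukocyte markers tested, 2 rose and 0 fell in MCT-Vehicle against Control, and 9 had a log2 fold change below 0. Fibroblast and pericyte markers ranged over 2920 to 3995 CPM in MCT-Fer-1, 3987 to 5568 CPM in MCT-Vehicle and 2310 to 2948 CPM in Control. The collagen gene Col3a1 made up 3174 of 4530 CPM on average in MCT-Vehicle and 1740 of 2617 CPM in Control. Of the 8, 4 rose in MCT-Vehicle against Control and 1, the pericyte gene Rgs5, fell (log2 fold change -1.33 ± 0.18, edgeR adjusted p = 5.22e-04). Alveolar type 1 and type 2 markers had 0 of 7 called in either list, and airway epithelial markers had 2 of 6 that fell. In MCT-Vehicle against Control, 5 of 7 had a log2 fold change below 0 in each alveolar list (medians -0.30 and -0.31). Type 1 markers summed to 5878 to 7827 CPM in MCT-Vehicle and 6623 to 9013 CPM in Control. Type 2 markers summed to 21350 to 34650 CPM in MCT-Vehicle and 33580 to 36430 CPM in Control. None of these lists but that of platelets held a gene without counts in every library, and the part of any of these cells in the values of the 9 genes was not tested.

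The mean level of the 9 genes also differed between libraries. Their mean log2 CPM was 6.69 to 7.05 in MCT-Fer-1, 6.56 to 6.93 in MCT-Vehicle and 7.43 to 7.61 in Control, so that each Control library stood above every monocrotaline library. To measure likeness, each gene's log2 CPM was set relative to its own mean over the 12 libraries, and the root mean square (RMS) difference between such profiles was taken in log2 units. Between members it was smallest for Cdh5 and Esam (0.142) and largest for Clec14a and Erg (0.676). From the members' mean profile, Tal1 differed by 0.132 and Clec14a by 0.468.

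Of the 15248 other genes tested, the nearest to the members' mean profile was Arap3, which encodes a GTPase-activating protein, at 0.0392, where the median gene stood at 0.424. It stood at 131 CPM in MCT-Fer-1, 120 CPM in MCT-Vehicle and 203 CPM in Control on average. With group means taken out, its RMS difference was 0.0374, against a median of 0.214 over the other genes. The next were Grasp (0.0890), Cyth3 (0.0972), Card10 (0.101), Ramp2 (0.106), Epas1 (0.108), Olfml2a (0.114) and Rasip1 (0.116). Ramp2, Epas1 and Rasip1 were in the lists of other endothelial genes. These genes were picked for their nearness, which is therefore a description.

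**Figure D5:**
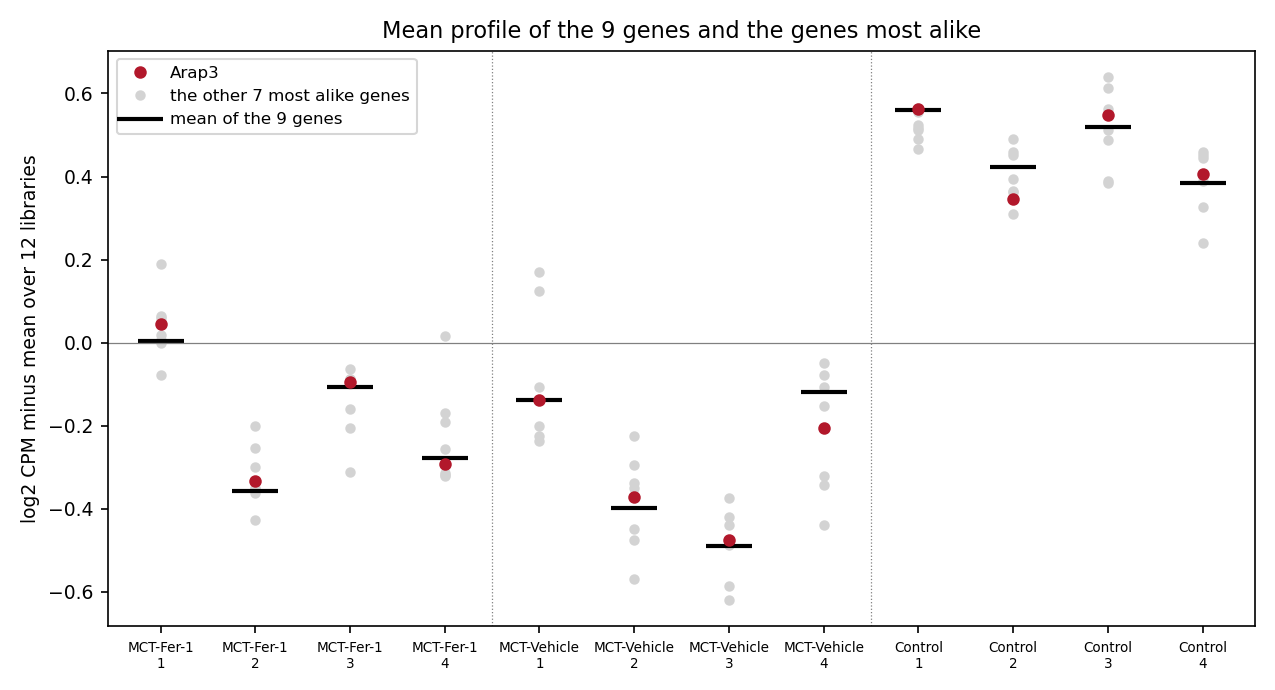
Log2 CPM minus its mean over 12 libraries (vertical axis) in each library of MCT-Fer-1, MCT-Vehicle and Control, for the mean of the 9 genes (black bars), for Arap3 (red) and for the other 7 genes with the smallest RMS difference from that mean (grey). Arap3 follows the black bars with an RMS difference of 0.0392.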

How the data were processed

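Whole-lung RNA of rats was read in 12 libraries prepared, per the labels' protocols, by a university genomics facility. A single deposited table gives whole-number read counts by gene, as the authors made it, per the file headers. Which aligner, counter, strand setting and build made it is not given in the sources used here. Reads of overlapping or antisense genes cannot be told apart. The deposited group means, a signal averaged over counts by the authors, were not used. Columns were matched to samples by the sample descriptions, and groups and replicate numbers came from the titles.

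The members and gene lists were chosen with earlier results of these data known. The filter of edgeR's filterByExpr left 15257 of 32883 genes. All 12 libraries entered 1 robust quasi-likelihood model in edgeR with a term for each group and TMM scaling (9 residual degrees of freedom). Benjamini-Hochberg adjustment ran over all genes tested, with a threshold of 0.05. Standard errors of log2 fold changes were obtained as the absolute value over the root of F. CPM were scaled to TMM library sizes, and log2 CPM had a prior count of 2. A floor of 3 counts corresponds to 0.0425 to 0.259 CPM and covers counting error only.

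Named genes were the members, the 3 called genes with the smallest p in each direction of each other endothelial list, at most 3 partners of TAL1 and the 8 genes nearest to the members' mean profile. Sox17, Fli1, Tie1, Ctnnb1, Calcrl, Bmpr2, Kit, Rgs5, Lyve1, Lyz2 and Col3a1 were chosen for naming with their values in view. They were relatives of members, the exception in a marker list, the largest part of a marker sum, known endothelial or junction genes without a call, or DESeq2 calls. With Pecam1 not analysed, 8 ratios to Cdh5 were adjusted together where 9 had been planned, and the planned ratio to Pecam1 was not run. Simulated counts with known changes were used to test the gene model. R 4.3.3, edgeR 4.0.16, limma 3.58.1, DESeq2 1.42.0 and Python 3.11.15 were used. Alternatives were RLE scaling or plain library totals, no filter, DESeq2, voom with quality weights, a fit of each pair of groups alone, replicate number as a block, all libraries thinned to the shallowest, and libraries left out.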

Additional observations from a re-analysis of the deposited data

Results flagged for a closer look

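In 51 sets of 4 libraries (9 genes and 8 ratios to Cdh5, in each of 3 groups), 2 held a library far from the other 3, and chance gives about 1 in 20. Cdh5 in Control stood at 979 CPM in Control 3 and at 837 to 858 CPM in the other 3 libraries, a gap of 0.855 of the whole range. The ratio of Sox18 to Cdh5 in MCT-Fer-1 stood at 0.0728 in MCT-Fer-1 4, the deepest library, and at 0.0557 to 0.0570 in the other 3, a gap of 0.926 of the whole range. Leaving out Control 3 did not end the call of Cdh5 in MCT-Vehicle against Control. Without MCT-Fer-1 4 the log2 difference of the Sox18 ratio between MCT-Fer-1 and MCT-Vehicle was -0.51, against -0.42 with it.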

How the results depend on the processing

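The 21 alternatives gave 189 values for the 9 genes in each comparison. Against Control every value of either monocrotaline group kept its sign. In MCT-Fer-1 against MCT-Vehicle 13 values changed sign, all of genes whose difference was smaller than its standard error: leaving out 1 library in turn gave -0.072 to 0.15 for Esam, -0.031 to 0.22 for Tal1, -0.26 to 0.079 for Cldn5 and -0.16 to 0.089 for Sox7, and leaving out MCT-Vehicle 2 and Control 4 together gave -0.044 for Esam and -0.025 for Tal1. The number of members called was 6 to 9 in MCT-Vehicle against Control and 4 to 7 in MCT-Fer-1 against Control over all alternatives. In MCT-Fer-1 against MCT-Vehicle it was 0 except with DESeq2, which called 1, and 2 of the other endothelial genes.

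Counts over all genes moved more. For MCT-Fer-1 against MCT-Vehicle, DESeq2 called 244 genes, the fit of only those groups 1, and leaving out 1 library 0 to 41, the highest without MCT-Vehicle 3. Without MCT-Vehicle 2 and Control 4, 1675 genes were called in MCT-Vehicle against Control and 978 in MCT-Fer-1 against Control, with fewer samples. Leaving out 1 library gave 2021 to 2860 for MCT-Vehicle against Control. For MCT-Fer-1 against Control it gave 977 to 1714, with 977 without MCT-Fer-1 2, 995 without MCT-Fer-1 3 and 978 without Control 4.

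With the replicate number as a block, 9, 0 and 6 members were called in MCT-Vehicle against Control, MCT-Fer-1 against MCT-Vehicle and MCT-Fer-1 against Control. Correlations between same-numbered libraries (r from -0.0633 to 0.102) lay within the range for other numbers (-0.172 to 0.15). In 7 of 24 cases a library was best correlated with its own number in another group. In the mean profile of the 9 genes, replicate 1 lay above its own group in MCT-Vehicle (0.15), MCT-Fer-1 (0.19) and Control (0.088). Replicate 2 lay below its own group in each (-0.11, -0.17 and -0.049 in that order). No label pairs the libraries, and whether same-numbered ones share more than a number cannot be told from these values. With Esam in place of Cdh5, added because Pecam1 was not analysed, the Clec14a ratio had exact permutation p = 0.0286 between MCT-Fer-1 and MCT-Vehicle (adjusted p = 0.229). That p, too, is not independent of the choice of Clec14a with its MCT-Vehicle level known. Every member had at least 352 counts in each library, and each group had 4 libraries.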

Other observations

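Erg stood at 95.1% of the Control mean in MCT-Fer-1 and 77.0% in MCT-Vehicle, while Sox18 stood at 63.7% in MCT-Fer-1 and 75.3% in MCT-Vehicle. The pair was singled out after its values were seen, and the difference between the genes was not tested. The library furthest above its own group in the mean profile of the 9 genes was MCT-Fer-1 1, by 0.19 on the log2 scale, and the library furthest below was MCT-Vehicle 3, by -0.20.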
